A study of Mus musculus with 5 samples.

Results

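The genes described here are 40 genes of autonomic ganglia, peripheral nerve and neuroendocrine cells, chosen by symbol, out of 51912 gene identifiers listed for each library. Each of the 40 symbols matched exactly 1 identifier. By role, 3 mark Schwann cells (Mbp, S100b and Sox10) and 37 mark neurons or neuroendocrine cells. They were measured in total RNA from dorsolateral prostate, taken from male mice aged 3 months. All 5 mice were Ghrflox/flox, that is, both alleles of the growth hormone receptor gene carried loxP sites. The labels give no Cre allele for the 3 control mice, and the 2 mice labelled Ghr deletion were also ROSA26Cre-ERT2+/0, with a tamoxifen-activated Cre recombinase at a locus that is active in most cell types. All mice received tamoxifen at 250 mg/kg on 5 successive days, and the tissue was taken 1 month after the last injection. The series lists the samples as biological replicates.

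The prostate is innervated by the pelvic ganglia, clusters of neuron cell bodies that lie against the accessory glands and hold noradrenergic (sympathetic) and cholinergic (parasympathetic) neurons. Many of the cholinergic neurons also make vasoactive intestinal peptide and nitric oxide. Most messenger RNA of a neuron lies in its cell body, so axons inside the gland carry little of it, whereas Schwann cells accompany the axons and keep their own nuclei there. Neuroendocrine cells are rare epithelial cells that share dense-core granules with neurons.

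The libraries held 19517831 to 41553558 expected counts. Levels are given as CPM, the count scaled to library size after TMM, except where TPM, which also divides by transcript length, is named. Sets of 5 values give control replicates 1, 2 and 3 first and then the replicates 1 and 2 labelled Ghr deletion. A level of 3 counts, taken as the limit that a count of 0 allows, was 0.185, 0.154 and 0.0662 CPM in control replicates 1 to 3, and 0.0681 and 0.0757 CPM in Ghr deletion replicates 1 and 2. Such limits cover counting error only. Ghr itself, summed over the whole gene, was at 10.1, 11.8 and 13.2 against 21.5 and 10.2 CPM, with a log2 fold change of 0.44 (SE 0.35, adjusted p = 0.874, edgeR). A count over the whole gene does not separate the floxed part, and Ghr was not lower under the deletion label, so directions below are those of the labels.

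Transcripts of neurons were spread unevenly among libraries of the same group. In CPM they were plentiful in control replicate 2 and present at lower levels in Ghr deletion replicate 2. They were near or at 0 in control replicates 1 and 3 and Ghr deletion replicate 1. Of the 37 neuronal and neuroendocrine genes, 29 had these libraries, control replicate 2 and Ghr deletion replicate 2, as their highest 2. Among the 30 of them that were tested 24 did, against 11.1% of all tested genes. In 26 of the 29 control replicate 2 was the higher, among them the untested Phox2a, Chat, Slc18a3 and Cartpt. Of all tested genes 9.07% had that order, a share on a different base because it leaves out untested genes. Of the 3 Schwann cell genes, 1 had these libraries as its highest 2 (Sox10). The median level of the 37 genes was 0.124, 9.44 and 0.0662 CPM in control replicates 1 to 3, and 0.0908 and 1.77 CPM in Ghr deletion replicates 1 and 2. In TPM the median was 0.01, 0.68, 0.03, 0.05 and 0.69 in the same order. By this median the same libraries stood out in TPM, but control replicate 2 was not above Ghr deletion replicate 2. Summed TPM of the 37 genes was 14.54, 52.21, 20.41, 57.19 and 52.25, so Ghr deletion replicate 1 had the highest sum. Without Ncam1, Nefh, Ret and Slc6a2, left out after the values were seen, the sums were 3.55, 45.45, 3.84, 7.59 and 27.46. Control replicate 2 was then the highest, followed by Ghr deletion replicate 2. Under 3 counts were found for 23, 2 and 16 of the 37 genes in the controls, and for 16 and 2 under the deletion label. Each Schwann cell gene had at least 4 counts in every library. In bulk tissue, fewer cells of a type and less RNA per cell cannot be told apart.

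**Figure D1:**
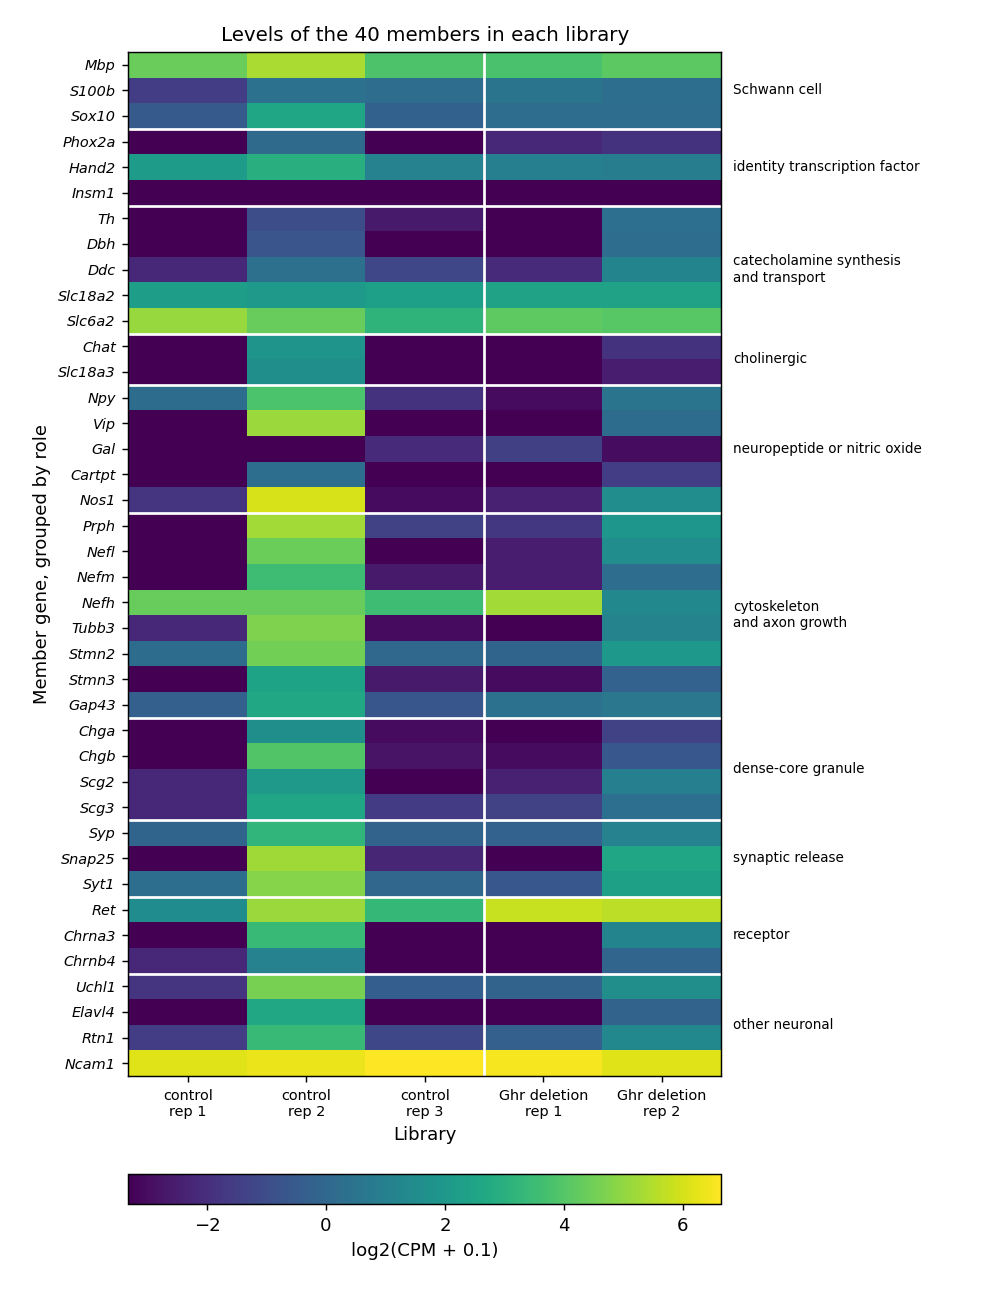
Level of each of the 40 genes (rows, grouped by role) in each of the 5 libraries (columns), as log2(CPM + 0.1). Most neuronal rows are bright in control replicate 2, intermediate in Ghr deletion replicate 2 and dark in the other 3 libraries, whereas Mbp, Slc6a2, Slc18a2, Nefh, Ret and Ncam1 are above 2 CPM in all 5.

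The order was also counted across the whole table. Control replicate 2 and Ghr deletion replicate 2 were the highest 2 libraries for 11.1% of the 18590 genes that passed the filter on low counts. A gene seen in no other library can pass that filter only through these, so the count was repeated on genes that pass it without them. Of 19 such members, 10 had this order, 9 of 16 neuronal genes and 1 of 3 Schwann cell genes, against 9.93% of 18938 genes. Control replicate 2 exceeded the higher of the other controls at least 4-fold for 26 of the 37 neuronal genes, with counts under 3 set to 3. Among tested genes it did so for 22 of 30 neuronal and 1 of 3 Schwann cell genes, against 2.69% of all. Of the 16 neuronal genes above, Npy, Stmn2, Gap43, Scg3, Syp, Syt1, Uchl1 and Rtn1 reached 4-fold. The median of this ratio was 16.4 for the 37 neuronal genes, 2.04 for the Schwann cell genes and 0.847 for all tested genes. Ghr deletion replicate 2 exceeded replicate 1 at least 4-fold for 20 of the 37 neuronal genes. Among tested genes it did so for 19 of 30 neuronal and 0 of 3 Schwann cell genes, against 2.00% of all. Of the 16 neuronal genes above, only Ddc, Npy, Stmn2 and Syt1 reached 4-fold here. The medians were 4.66 for the 37 neuronal genes, 1.02 for the Schwann cell genes and 1.02 for all tested genes. For both ratios, the share over all genes that pass the filter without these libraries was not counted. The order lies between libraries of 1 group and has no replicate of its own, so these are descriptions without a test.

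The Schwann cell genes were detected in every library. Mbp, a structural protein of myelin that also has a form made outside nerve, was at 20.4, 41.6 and 14.6 CPM in control replicates 1 to 3 and 13.6 and 17.5 CPM in Ghr deletion replicates 1 and 2. Control replicate 2 was the highest, and the other 4 libraries lay within 13.6 to 20.4 CPM. S100b, a calcium-binding protein of Schwann cells and some other cell types, was at 0.247, 1.23 and 1.08 against 1.32 and 1.11 CPM. Only control replicate 1 was low, at 4 counts. Sox10, the transcription factor that specifies peripheral glia, was at 0.617, 5.91, 0.750, 1.07 and 1.09 CPM in the same order. Sox10 was therefore high in control replicate 2, 7.88-fold above the higher of the other controls, while the libraries labelled Ghr deletion were at nearly equal levels. On the TPM scale control replicate 2 was not the highest library for any of the 3 genes: Mbp was at 2.22, 2.95, 2.58, 4.11 and 4.53 TPM. The median of all tested genes was itself 0.87 higher under the deletion label on log2(TPM + 1).

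**Figure D2:**
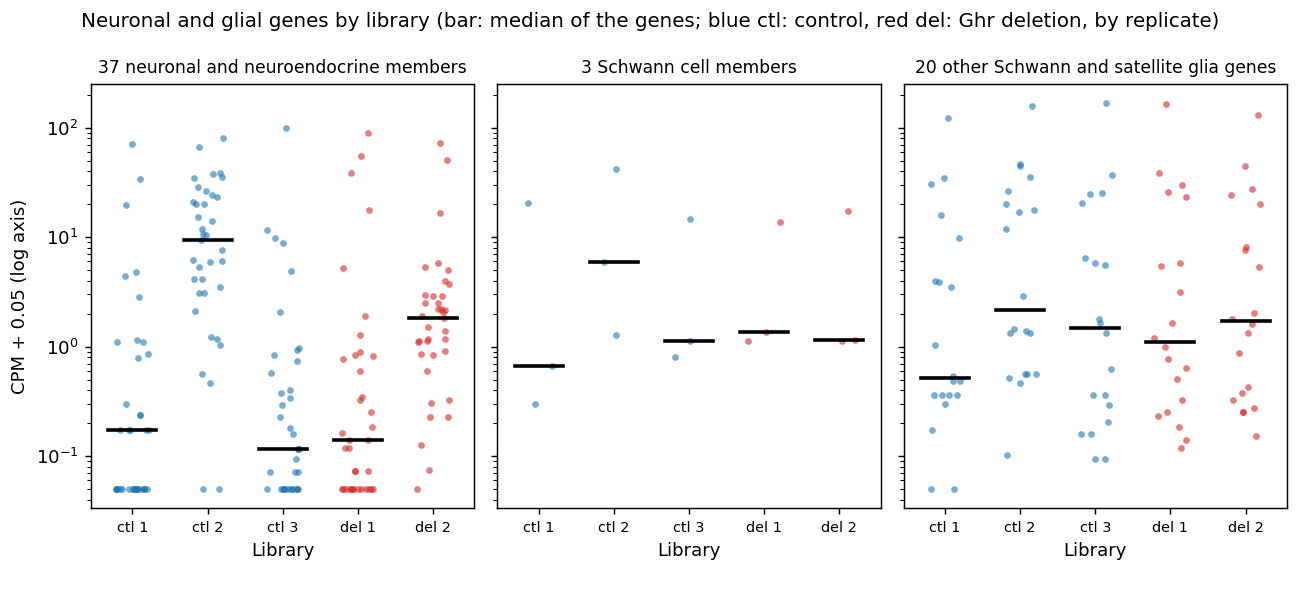
CPM + 0.05 (log axis) of single genes in each library for the 37 neuronal and neuroendocrine genes, the 3 Schwann cell genes and 20 other genes of Schwann cells and satellite glia. The black bar is the median of the genes, which for the neuronal genes runs from 0.0662 CPM in control replicate 3 to 9.44 CPM in control replicate 2, and for the other glial genes from 0.463 to 2.13 CPM (all before adding 0.05).

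Genes of neuronal identity were scarce. Phox2a, a homeodomain factor required for noradrenergic fate, had 0, 19 and 0 against 5 and 7 counts, and it did not pass the filter. Insm1, a zinc finger factor of neuroendocrine precursors, had 0 counts in all 5 libraries. Hand2, which sympathetic neurons share with mesenchyme, was at 4.41, 7.65 and 2.02 against 1.85 and 1.77 CPM. The groups did not overlap, and control replicate 3 lay just above Ghr deletion replicate 1. Its log2 fold change was -1.36 (SE 0.60, edgeR adjusted p = 0.874), and its exons overlap those of Hand2os1 on the opposite strand, so some reads may belong to that gene.

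Genes of catecholamine synthesis had more counts in Ghr deletion replicate 2 than in control replicate 2, the reverse of most neuronal genes. Th (chromosome 7, 142892752 to 142931128), tyrosine hydroxylase, which sets the rate of catecholamine synthesis, had 0, 8 and 3 against 0 and 45 counts. Dbh, which converts dopamine to noradrenaline, had 0, 10, 0, 0 and 43 counts in the same order. Ddc, the decarboxylase between these steps, had 2, 23, 15, 6 and 85 counts. For each of the 3 enzymes the rest of the libraries lay below control replicate 2 in CPM. The transporters had another profile. Slc6a2, the noradrenaline transporter, was at 34.1, 20.2 and 8.73 against 17.8 and 16.6 CPM. Its highest level was in control replicate 1, where Th and Dbh had 0 counts. Slc18a2, which loads monoamines into vesicles, was at 4.75, 4.11, 4.85, 5.20 and 5.30 CPM. The groups did not overlap for Slc18a2, but they differed by less than their standard error (log2 fold change 0.20, SE 0.26, edgeR adjusted p = 0.89).

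The cholinergic genes were found almost entirely in control replicate 2. Chat (chromosome 14, 32408203 to 32465989), which makes acetylcholine, had 0, 68 and 0 against 0 and 7 counts. Slc18a3, the vesicular acetylcholine transporter, lies inside the Chat gene on the same strand (32462438 to 32464850) and had 0, 59, 0, 0 and 3 counts. Neither passed the filter on low counts.

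Vip and Nos1 were among the genes with the widest differences between libraries. Nos1 (chromosome 5, 117781032 to 117958840), neuronal nitric oxide synthase, was at 0.185, 66.6 and 0.0221 against 0.0908 and 2.85 CPM. Vip (chromosome 10, 5639218 to 5647617), vasoactive intestinal peptide, had 681 counts in control replicate 2, or 35.0 CPM, and 0 counts in the other controls, where it was at least 189-fold lower against 3 counts per library. In Ghr deletion replicates 1 and 2 Vip had 0 and 42 counts. Npy, a peptide released with noradrenaline, was at 1.05, 14.1, 0.176, 0.0227 and 1.34 CPM. Npy differed from Vip and Nos1 in that control replicate 1 held 17 counts. Cartpt, another peptide of autonomic neurons, had 0, 22, 0, 0 and 10 counts. Gal, galanin, did not share the order: it had 0, 0 and 6 against 12 and 1 counts.

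Of 8 genes of the neuronal cytoskeleton and axon growth, 7 had the common order. Prph, the intermediate filament of peripheral neurons, was at 0, 38.7, 0.287, 0.204 and 3.68 CPM in control replicates 1 to 3 and Ghr deletion replicates 1 and 2. Tubb3, the neuronal beta tubulin, had 2, 517, 1, 0 and 84 counts. The neurofilament genes Nefl and Nefm, which are neighbours on chromosome 14 with overlapping exons on opposite strands, had 407 and 229 counts in control replicate 2, 113 and 43 counts in Ghr deletion replicate 2, and at most 3 counts elsewhere. Nefh, the heavy neurofilament subunit, was the exception, at 19.8, 20.1 and 11.7 against 38.3 and 2.45 CPM. Ghr deletion replicate 1, where Nefl and Nefm had 3 counts each, was thus the highest library for Nefh and Ghr deletion replicate 2 the lowest. Stmn2 and Stmn3, regulators of microtubules, and Gap43, a protein of growing axons, followed the common order. Gap43 was the flattest of the 3, at 0.741, 6.16, 0.529, 1.23 and 1.46 CPM.

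All 4 genes of dense-core granules and all 3 genes of synaptic release had the common order. Chgb, a granule core protein, had 0, 300 and 2 against 1 and 22 counts. Chga, the granin most used to mark neuroendocrine cells, had 0, 59, 1, 0 and 11 counts. Scg2 and Scg3, granins of the same granules, had 80 and 114 counts in control replicate 2 and 74 and 45 in Ghr deletion replicate 2. Scg3 was at 0.123, 5.86 and 0.243 against 0.295 and 1.14 CPM. Snap25, a membrane fusion protein of nerve endings, was at 0, 37.4, 0.110, 0 and 5.73 CPM. Control replicate 2 stood at least 202-fold above control replicate 1, and Ghr deletion replicate 2 at least 84.2-fold above replicate 1, both set against 3 counts per library because the lower library had 0. Syp and Syt1, proteins of synaptic vesicles, had 184 and 558 counts in control replicate 2 and 80 and 198 in Ghr deletion replicate 2, and were present in the other 3 libraries, at 13 to 36 and 18 to 40 counts.

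Among receptors, Chrna3 and Chrnb4 encode subunits of the nicotinic receptor that carries transmission in autonomic ganglia, and they are neighbours on chromosome 9 (55010111 to 55026562 and 55028154 to 55048779). Chrna3 had 0, 209, 0, 0 and 85 counts, and Chrnb4 had 2, 40, 0, 0 and 34 counts, in control replicates 1 to 3 and Ghr deletion replicates 1 and 2. Ret (chromosome 6, 118151745 to 118197718), the tyrosine kinase receptor for glial-derived neurotrophic factors, had a different profile. Ret was at 2.78, 35.6 and 9.88 against 55.7 and 50.2 CPM. The control mean was 16.1 ± 17.3 CPM (SD, n = 3), and that of the deletion label was 53.0 ± 3.91 CPM (SD, n = 2). The groups did not overlap, and control replicate 2 lay nearest to the libraries labelled Ghr deletion. Its log2 fold change was 1.72 (SE 0.91, 95% confidence interval -0.53 to 3.97, edgeR adjusted p = 0.874), and it was 3.03 without control replicate 2. Ret passed the threshold on log2(TPM + 1) by limma (adjusted p = 0.000461), a scale on which 2294 of all genes did; the adjusted p ran up to 1.0 over all settings. Ghr deletion replicate 1 thus had the most Ret while Chrna3, Snap25 and Vip were at 0 counts.

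Of the remaining neuronal genes, Uchl1, a ubiquitin hydrolase abundant in neurons, was at 0.185, 24.1, 0.684, 0.794 and 2.93 CPM. Elavl4, a neuronal RNA-binding protein, had 0, 116, 0, 0 and 32 counts, and Rtn1, a reticulon of the endoplasmic reticulum, had 4, 202, 16, 32 and 97 counts. Ncam1, an adhesion molecule of nerve that other tissues also make, was nearly level, at 70.9, 81.3 and 100.1 against 90.0 and 72.2 CPM. Ncam1 had a log2 fold change of -0.05 (SE 0.23, 95% confidence interval -0.63 to 0.52).

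The libraries with neuronal transcripts differed from each other in transmitter genes. Summed over Chat and Slc18a3, control replicate 2 was 25.8-fold above Ghr deletion replicate 2 in CPM, and summed over Vip and Nos1 it was 26.0-fold above. For 6 genes that do not depend on the transmitter (Prph, Tubb3, Snap25, Uchl1, Elavl4 and Chgb) the sum differed 9.37-fold. Within these 6 the difference ran from 6.53-fold for Snap25 to 27.8-fold for Chgb, so that Chgb lay as far apart as the cholinergic and the Vip and Nos1 sums. For Th, Dbh and Ddc the direction was opposite, with Ghr deletion replicate 2 at 2.07-fold the level of control replicate 2 (173 against 41 counts). Relative to Snap25 in the same library, which removes library scaling, there were 1.32 TPM of Th per 100 TPM of Snap25 in control replicate 2 and 23.1 in Ghr deletion replicate 2. For Vip these values were 126 and 26.3, and for Chat 6.35 and 2.35. Among genes that do not depend on the transmitter, they were 76.5 and 42 for Tubb3, 167 and 122 for Uchl1 and 31.7 and 29.4 for Nefl, which is outside the 6. Snap25 itself was at 3.78 and 2.55 TPM in these libraries. The rest of the 6 were at 1.1 and 0.18 TPM for Chgb, 4.43 and 1.98 TPM for Prph and 0.41 and 0.37 TPM for Elavl4. In TPM, Chgb and Prph thus also fell relative to Snap25, while Elavl4 did not. In CPM Elavl4 differed 7.38-fold, somewhat more than Snap25. These sets were chosen after the values were seen, and each library is 1 mouse, so this is a comparison of those libraries and not of the conditions. The exact Poisson interval at 95% for Th, which covers counting error only, was 0.177 to 0.81 CPM in control replicate 2 (8 counts) and 0.828 to 1.52 CPM in Ghr deletion replicate 2 (45 counts), so that the intervals nearly touched.

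**Figure D3:**
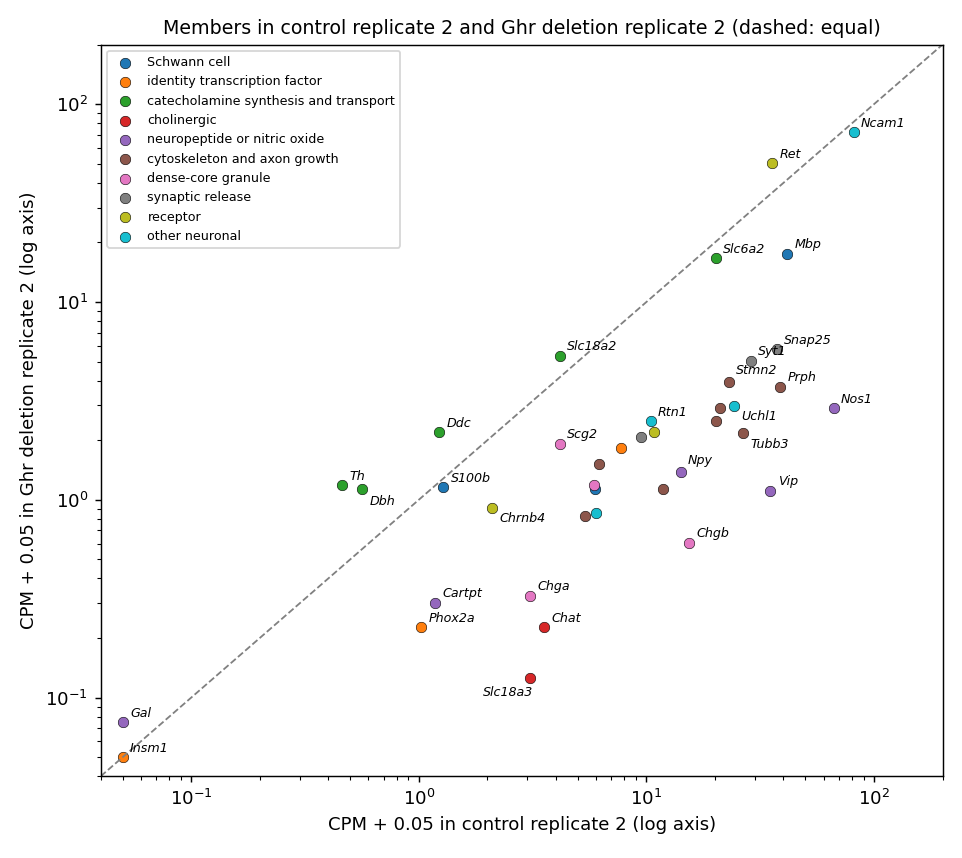
CPM + 0.05 of the 40 genes in control replicate 2 (horizontal) and Ghr deletion replicate 2 (vertical), both on log axes, coloured by role, with a dashed line at equal levels and names left off in the crowded part. Th, Dbh, Ddc, Slc18a2, Gal and Ret lie above the line, and Vip, Nos1, Chgb, Chat and Slc18a3 lie far below it.

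The promoters of Th, Scg2, Chgb and Vip are shown, a choice made after the values were seen. These genes share the order of libraries in part. Th and Vip serve different transmitters, while Scg2 and Chgb encode granins of dense-core granules. Of the 40 genes, 28 had at least 1 promoter in the RefSeq table (GRCm38.p6, 250 bases before to 50 after the transcript start), 35 promoters in all. The cyclic AMP response element TGACGTCA, a site known from several neuropeptide and catecholamine genes, was found on either strand in 5 of these 35 (14.3%; Cartpt, Chgb, Scg2, Slc18a2 and Th), against 1.79% of all 32851 promoters. The shorter TGACGT, which TGACGTCA contains, was found in 9 of 35 (25.7%) against 7.51%. Capitals mark TGACGTCA, or in Vip TGACGT, each shown 5′ to 3′ on the strand of the gene. The positions are Th chr7:142899946-142900245 (minus strand), Scg2 chr1:79439977-79440276 (minus), Chgb chr2:132781392-132781691 (plus) and Vip chr10:5638968-5639267 (plus).
Th: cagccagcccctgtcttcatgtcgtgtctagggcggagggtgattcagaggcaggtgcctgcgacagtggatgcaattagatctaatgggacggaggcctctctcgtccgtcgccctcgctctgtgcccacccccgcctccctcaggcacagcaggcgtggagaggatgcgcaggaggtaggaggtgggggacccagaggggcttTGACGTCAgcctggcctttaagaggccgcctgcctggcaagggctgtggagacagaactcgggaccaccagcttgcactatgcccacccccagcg
Scg2: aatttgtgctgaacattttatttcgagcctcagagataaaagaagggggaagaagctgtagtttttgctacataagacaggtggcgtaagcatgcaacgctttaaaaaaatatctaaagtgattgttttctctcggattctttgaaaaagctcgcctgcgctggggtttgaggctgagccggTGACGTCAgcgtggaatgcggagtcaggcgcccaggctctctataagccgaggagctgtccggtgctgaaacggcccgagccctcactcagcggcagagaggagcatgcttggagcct
Chgb: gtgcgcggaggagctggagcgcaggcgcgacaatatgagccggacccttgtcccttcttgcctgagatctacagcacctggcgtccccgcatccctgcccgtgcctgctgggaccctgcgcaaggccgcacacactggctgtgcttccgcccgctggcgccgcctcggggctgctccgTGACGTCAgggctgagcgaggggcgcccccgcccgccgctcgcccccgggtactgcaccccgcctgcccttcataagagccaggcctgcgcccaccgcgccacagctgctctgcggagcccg
Vip: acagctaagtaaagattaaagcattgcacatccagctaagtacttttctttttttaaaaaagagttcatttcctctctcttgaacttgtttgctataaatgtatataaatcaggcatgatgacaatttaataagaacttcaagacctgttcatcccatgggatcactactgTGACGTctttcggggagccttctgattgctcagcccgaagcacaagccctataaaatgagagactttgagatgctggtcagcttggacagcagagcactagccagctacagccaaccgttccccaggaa
The marked bases began 45, 68, 72 and 79 bases before the transcript start in Th, Scg2, Chgb and Vip. Other strings were also searched on both strands. TATAAA was found in 4 of 35 (13.6% of all promoters), GGGCGG in 17 of 35 (35.7%), CAGCACC in 3 of 35 (7.14%), TTCAGCACC, which contains CAGCACC, in 1 of 35 (0.37%) and CCATTAG in 2 of 35 (2.0%). An inverted pair of homeodomain core sites was found in 0 of 35 (0.49%). A match describes the sequence only. The 5 genes with TGACGTCA differed in their order of libraries in CPM. Th was higher in Ghr deletion replicate 2, Scg2, Chgb and Cartpt in control replicate 2, and Slc18a2 was nearly level.

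Neuronal and Schwann cell genes were next compared within each library, where library scaling cancels. The summed TPM of the 37 neuronal genes over that of the 3 Schwann cell genes was 6.06, 14.7 and 6.26 against 9.93 and 9.30. On the log2 scale this was 3.04 ± 0.73 (SD, n = 3) and 3.26 ± 0.07 (SD, n = 2), a difference of 0.22 that is smaller than the spread among the controls. Of the neuronal sum, Ncam1, Nefh, Ret and Slc6a2 made up 75.6%, 12.9% and 81.2% against 86.7% and 47.4%. Without these 4 genes, a choice made after the values were seen, the ratio was 1.48, 12.8, 1.18, 1.32 and 4.89 in the same order. Control replicates 1 and 3 and Ghr deletion replicate 1 then lay within 1.18 to 1.48, and the other libraries were above them. The difference was 0.40 with summed expected counts and 0.44 without Ncam1, the neuronal gene with the highest mean TPM. With medians of log2(TPM + 0.1) in place of sums, the difference between groups was -0.74, and with the 20 further glial genes added to the denominator it was -0.18, both of the opposite sign.

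None of the 40 genes passed the test between the groups. By edgeR's quasi-likelihood test, 0 of 18590 genes were called higher (0%) and 0 lower (0%) at an adjusted p under 0.05. Of the 40 genes, 33 passed the filter and were tested, 30 neuronal and 3 of Schwann cells, and 0 were called. At an unadjusted p under 0.05 the count was 0 of 33, against 4.26% of all tested genes, and limma-voom called 0 of 33. DESeq2 called 0 of the 26 to which it gave an adjusted p, and it gave none to Dbh, Vip, Nos1, Prph, Nefl, Tubb3 and Snap25. Over all genes DESeq2 called 81 and limma-voom 0. Adjusted p-values of the 33 ran from 0.874 to 0.962. Fitted log2 fold changes were below 0 for 25 of 30 neuronal genes, with a median of -1.77, and for 2 of 3 Schwann cell genes, with a median of -0.71, against -0.01 over all tested genes. Without control replicate 2 the medians were 1.19 and 0.64, and without Ghr deletion replicate 2 they were -4.98 and -0.90. Which genes could be tested changed with the library: 19 of the 40 without control replicate 2, 37 without Ghr deletion replicate 2 and 19 without both, where the medians were 0.09 and 0.62. Over the 15 neuronal genes tested in all of these fits, the median was -1.20 with all libraries, 1.11 without control replicate 2, -1.96 without Ghr deletion replicate 2 and 0.07 without both. With limma-voom the neuronal median was 0.08. Standard errors were wide, with a median of 2.09 for the neuronal and 0.68 for the Schwann cell genes against 0.37 for all tested genes. Groups did not overlap for 2 genes on the higher side, Ret and Slc18a2 (10.8% of tested genes), and for 1 on the lower side, Hand2 (12.5%), neither count being above that background. The smallest two-sided p of an exact permutation test is 0.2 here, and none is given.

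**Figure D4:**
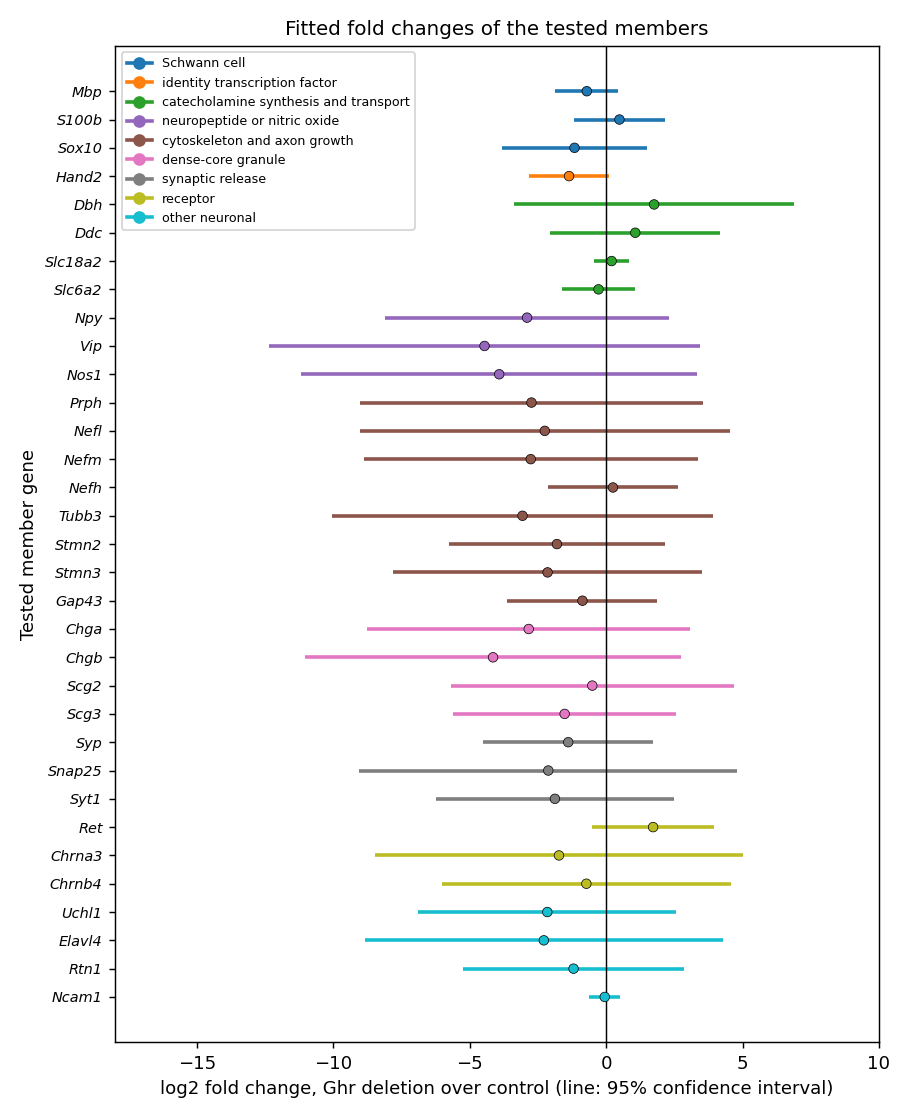
Log2 fold change of the libraries labelled Ghr deletion over control for the 33 tested genes, with 95% confidence intervals from edgeR's quasi-likelihood fit (lines), coloured by role. Every interval includes 0, and those of Vip, Nos1 and Tubb3 are the widest, while Ncam1 and Slc18a2 have the narrowest.

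Other genes of the same cell types, from lists that do not include the 40, were examined in the same way. Of 24 further neuronal genes 15 had control replicate 2 and Ghr deletion replicate 2 as the highest 2 libraries (12 of 21 tested). Of all tested genes 11.1% did. Slc5a7, the choline transporter of cholinergic endings, was among the 15, at 0.123, 15.2, 0, 0 and 0.681 CPM. Of 21 tested, 0 were called, 19 had a fold change below 0 and the median was -1.26, and the smallest p belonged to Gata3 (log2 fold change -1.15, SE 0.41, edgeR adjusted p = 0.874), which epithelium also makes. Of 20 further glial genes 10 had this order (9 of 17 tested), so it was not confined to neuronal genes. Of 17 tested, 0 were called, and their median fold change was -0.30 on the log2 scale. Erbb3, a neuregulin receptor that epithelium also makes, was nearly level at 123, 158, 168, 165 and 131 CPM. Of 14 neuroendocrine and chromaffin genes 4 had the order (2 of 6 tested), and 0 of 6 tested were called. Scgn had 0 counts in all libraries, and Pnmt, the adrenaline-forming enzyme of chromaffin cells, was at most 0.154 CPM. Of 8 neurotrophic ligands 0 had the order, and 0 of 6 tested were called. Of 12 adrenergic and muscarinic receptors 1 had it, Chrm1, the muscarinic receptor also found on neurons, at 0.802, 8.48, 0.728, 0.386 and 1.09 CPM, and 0 of 8 tested were called.

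Markers of other cell types also differed among the controls. The summed level of 8 smooth muscle markers was 2391 CPM in control replicate 2, against 5623 and 7772 CPM in the other controls and 6428 and 6827 CPM under the deletion label. The sum of 8 fibroblast markers was 1287 CPM in control replicate 2 and 1832 CPM in Ghr deletion replicate 2, and 2470 to 3900 CPM in the other 3 libraries. Of 8 skeletal muscle markers, Myh4, Myh1 and Myl1 were highest in control replicate 2, at 1.23 to 2.06 CPM, while the sum of the 8 was 92.0 CPM there and 103 to 328 CPM elsewhere. The 8 seminal vesicle markers summed to 451750, 234410 and 234780 CPM in the controls and to 105000 and 183270 CPM under the deletion label. Adipocyte markers summed to 2.52 to 2.96 CPM in the controls and to 17.0 and 5.20 CPM under the deletion label, and markers of T, B and myeloid cells to 39.1 to 78.2 CPM over all libraries. Epithelial markers summed to 813 to 1044 CPM and endothelial markers to 89.6 to 145 CPM. The 6 markers of central nervous glia summed to 0.353 to 0.771 CPM, with Opalin at 0 counts in all libraries. The part of these differences in the neuronal levels was not tested.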

How the data were processed

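Libraries were prepared from flash-frozen prostate with a stranded TruSeq total RNA kit, per the labels' protocols. Per the submitters' processing notes, the tools included RSEM 1.3.0, STAR 2.5.3a and bcl2fastq 2.20.422, and the build was GRCm38. The strand setting and the annotation release were not given in the sources used here. RSEM tables were deposited with expected counts, where reads that fit several genes are shared out by a model, with TPM, and with effective length as another value per gene.

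Symbols were matched for 99.5% of identifiers, and gene coordinates are from GENCODE M21 on GRCm38. Expected counts were rounded, filtered with filterByExpr, scaled by TMM and tested with edgeR 4.0.16 (R 4.3.3), modelling group alone, and adjusted by Benjamini-Hochberg over all tested genes. The step was tested on simulated counts. The members and lists were chosen with earlier results of these data known. Values in every library were to be printed for the Schwann cell genes, the gene with the highest mean TPM of each other role, and genes whose groups did not overlap or whose unadjusted p was under 0.05. Other genes were added after their values were seen. Depth ran from 19517831 to 41553558 expected counts, and p-values measure only the spread between these samples. Alternatives were other scalings and filters, DESeq2 1.42.0, limma 3.58.1 (voom, and log2(TPM + 1) or log2(TPM + 0.1)), offsets from effective length, removal of the 20 most abundant genes, removal of each library, and a block for the replicate number. Leaving out both libraries numbered 2, and medians over 1 fixed set of genes, were added after seeing the data. Some genes of the further lists are not reported here by name.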

Additional observations from a re-analysis of the deposited data

How the results depend on the processing

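The count of all genes called, 0 by edgeR, was 2 with no low-count filter, 81 with DESeq2, 2294 on log2(TPM + 1), 733 on log2(TPM + 0.1) and 48 without control replicate 3. It was 1126 with the replicate block. It was 0 under the other 12 settings, so leaving out 1 library gave 0 to 48. Of the 40 genes, 3 were called on log2(TPM + 1) (Ddc, Ret and S100b), all higher on a scale where the median of all genes was higher too. Relative to that median Ret was 1.78, but Ddc was -0.42 and S100b -0.22. On log2(TPM + 0.1) 1 was called (Ret). With the replicate block 8 were called (Vip, Snap25, Chgb, Nos1, Npy, Syt1, Hand2 and Tubb3, all lower). The count was 0 of those that each other setting could test. These were 26 with DESeq2, 19 without control replicate 2 and at least 27 elsewhere, except 19 without both libraries numbered 2. The TPM scales moved the median of all genes by 0.87 and 1.33 and library size only by 0.58, and fold changes under these 3 are given relative to that shift, while p-values are of the unshifted values. The adjusted p of Ret was 0.000461 and 0.000416 on the TPM scales and ran up to 1.0 over all settings.

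The numbers do not pair the mice in the labels: only numbers 1 and 2 occur in both groups, and the block leaves 1 residual degree of freedom. Deviations of same-numbered libraries from their group means correlated at 0.298 and 0.261. The 2 deviations in the Ghr deletion group mirror each other, so differently numbered pairs gave -0.298 and -0.261. Control replicate 3 gave 0.034 and -0.034. These values are not independent and cannot show pairing. Both libraries with neuronal transcripts carry the number 2, so under the block they are compared with each other.

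The difference of the neuronal to Schwann cell ratio, 0.22, was -0.74 with medians of log2(TPM + 0.1), 0.00 to 0.64 when 1 library was left out and 0.69 without both libraries numbered 2. Among the genes named by rule, signs of the fold change turned for S100b (-0.22) and Slc18a2 (-0.16) on log2(TPM + 1). They turned for Slc6a2 (0.0289), Nefh (-0.69) and Scg3 (0.15) with limma-voom, for Nefh on the TPM scales (-0.10 and -0.61) and with the replicate block (-0.98), and for Ncam1 on log2(TPM + 1) (0.33) and with the replicate block (0.0857). Without both libraries numbered 2, Sox10 was 0.62, Scg3 0.59 and Ncam1 0.0668. With 1 library left out, Sox10 ran from -1.62 to 0.64, Slc6a2 ran from -0.66 to 0.26, Npy ran from -7.56 to 0.27, Nefh ran from -2.81 to 1.16, Scg3 ran from -2.78 to 1.84 and Ncam1 ran from -0.22 to 0.10. Among the other tested genes, signs turned for 11 with limma-voom, 2 on each TPM scale (Dbh and Ddc), 7 without control replicate 2, 2 and 1 without Ghr deletion replicates 1 and 2, and 4 without both libraries numbered 2. The cause was not tested. Chat, Slc18a3, Th and Dbh had 0 to 3 counts in at least 3 libraries.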
